A study of Homo sapiens with 8 samples.

Results

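The genes described here are 34 genes of protein folding and quality control in the endoplasmic reticulum (ER), the compartment where secreted and membrane proteins are made. They comprise chaperones, disulfide isomerases, the sensors of the unfolded protein response, components of ER-associated degradation and parts of the import channel, and were taken by symbol from a table of read counts for 25168 genes. All 34 symbols were in the table, and 33 had enough counts to be tested. The RNA came from KG1a, a long-established line of immature human cells of acute myeloid leukemia. Cells were treated for 48 h with 5 µM TAK-981, with 1 µM venetoclax, with both drugs (the combination) or with DMSO as vehicle. TAK-981 blocks the SUMO-activating enzyme, and with it the attachment of SUMO to target proteins, while venetoclax blocks BCL2, which protects cells from apoptosis. Each of the 4 groups had 2 libraries. The labels do not state whether these came from separate cultures, so p-values measure the spread between libraries, which may be technical, and the data describe 1 cell line.

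Proteins that enter the ER are folded by chaperones such as BiP, the product of HSPA5, by the lectin chaperones calreticulin and calnexin, and by disulfide isomerases. When unfolded proteins accumulate, the sensors IRE1 (encoded by ERN1), PERK (EIF2AK3) and ATF6 become active. IRE1 splices the XBP1 mRNA, PERK phosphorylates a translation initiation factor, and ATF6 is cleaved to release a transcription factor. The sensors act through splicing, phosphorylation and cleavage, which counts per gene do not measure, whereas chaperone and degradation genes are among the transcriptional targets of the response.

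The promoters of such targets often carry the ER stress response element (ERSE), which is bound by NF-Y together with ATF6 or XBP1, so they are shown here for 4 chaperone genes, for XBP1 and for EDEM1, which moved unlike the chaperones. RefSeq promoter windows (GRCh38.p14, 250 bases before to 50 after the gene start) were held for 31 of the 34 genes. No window was held for PDIA3, DERL1 and DERL3. Both strands were searched for exact matches to ERSE (CCAAT, any 9 bases, CCACG), ERSE-II (ATTGG, any base, CCACG) and the unfolded protein response element UPRE (TGACGTGG). ERSE was found for 7 of the 31 genes (22.6%), against 25 of 27305 genes with a window (0.0916%). ERSE-II was found for 3 genes (9.68%, against 0.0696% of all) and UPRE for 1 (3.23%, against 0.927%). In all, 10 of the 31 genes (32.3%) had at least 1 of these motifs, against 1.08% of all genes. The 31 genes belong to a list chosen for ER folding and the unfolded protein response, whose targets often carry ERSE. These shares therefore describe the list and are not a test of it. The 250 bases before each start follow on the strand of the gene, 5′ to 3′, with motif matches in capitals. They lie at chr9:125241344-125241593 (minus strand, HSPA5), chr12:103930160-103930409 (plus, HSP90B1), chr19:12938359-12938608 (plus, CALR), chr11:119057206-119057455 (minus, HYOU1), chr22:28800570-28800819 (minus, XBP1) and chr3:5187457-5187706 (plus, EDEM1).
HSPA5: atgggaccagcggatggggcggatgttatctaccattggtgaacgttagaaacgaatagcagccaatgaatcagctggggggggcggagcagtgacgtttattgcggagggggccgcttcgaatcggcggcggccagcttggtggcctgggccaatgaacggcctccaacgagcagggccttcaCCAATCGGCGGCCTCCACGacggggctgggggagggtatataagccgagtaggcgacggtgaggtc
HSP90B1: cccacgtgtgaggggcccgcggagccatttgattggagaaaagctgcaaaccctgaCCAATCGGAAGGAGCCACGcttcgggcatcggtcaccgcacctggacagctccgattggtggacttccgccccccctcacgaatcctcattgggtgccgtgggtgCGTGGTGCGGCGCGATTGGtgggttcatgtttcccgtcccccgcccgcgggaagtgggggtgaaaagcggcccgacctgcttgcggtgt
CALR: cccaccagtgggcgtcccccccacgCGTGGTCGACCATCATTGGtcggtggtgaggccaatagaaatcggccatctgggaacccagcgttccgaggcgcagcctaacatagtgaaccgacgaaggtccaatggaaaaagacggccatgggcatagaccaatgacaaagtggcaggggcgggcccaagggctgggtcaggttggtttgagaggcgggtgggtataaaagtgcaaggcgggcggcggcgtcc
HYOU1: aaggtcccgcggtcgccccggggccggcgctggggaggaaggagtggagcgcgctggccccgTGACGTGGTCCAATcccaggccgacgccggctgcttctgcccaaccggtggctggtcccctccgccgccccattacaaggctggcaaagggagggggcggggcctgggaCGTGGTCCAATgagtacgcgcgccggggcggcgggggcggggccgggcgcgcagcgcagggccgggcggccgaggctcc
XBP1: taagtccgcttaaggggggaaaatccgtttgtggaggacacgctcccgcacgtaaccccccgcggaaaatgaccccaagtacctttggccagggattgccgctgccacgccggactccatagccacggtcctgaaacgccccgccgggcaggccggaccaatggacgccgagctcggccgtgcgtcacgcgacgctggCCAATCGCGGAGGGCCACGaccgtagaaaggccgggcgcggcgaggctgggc
EDEM1: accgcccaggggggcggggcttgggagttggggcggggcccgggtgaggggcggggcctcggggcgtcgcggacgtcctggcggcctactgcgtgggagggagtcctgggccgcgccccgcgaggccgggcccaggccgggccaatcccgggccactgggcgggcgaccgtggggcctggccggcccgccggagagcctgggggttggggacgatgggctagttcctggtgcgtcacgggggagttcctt

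HSPA5 had an ERSE from base -66 to -48, and HSP90B1 had 1 from -194 to -176 and a second on the opposite strand from -89 to -71. CALR had its match from -225 to -207 on the opposite strand, and XBP1 from -52 to -34. HYOU1 had ERSE-II matches on the opposite strand at -185 to -175 and -79 to -69. It also had a UPRE on the gene's strand at -188 to -181 that overlaps the first of them. The other matches were ERSE in CRELD2, CANX and PDIA6, with the letters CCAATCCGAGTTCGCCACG, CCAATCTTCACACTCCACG and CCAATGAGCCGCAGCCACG, and ERSE-II in SDF2L1 (ATTGGTCCACG) and HERPUD1 (ATTGGGCCACG). These letters are written in the direction of the motif, and the matches of CRELD2 and SDF2L1 lie on the opposite strand. The EDEM1 window held no exact match. A match is a description of the letters, and binding was not measured.

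**Figure D1:**
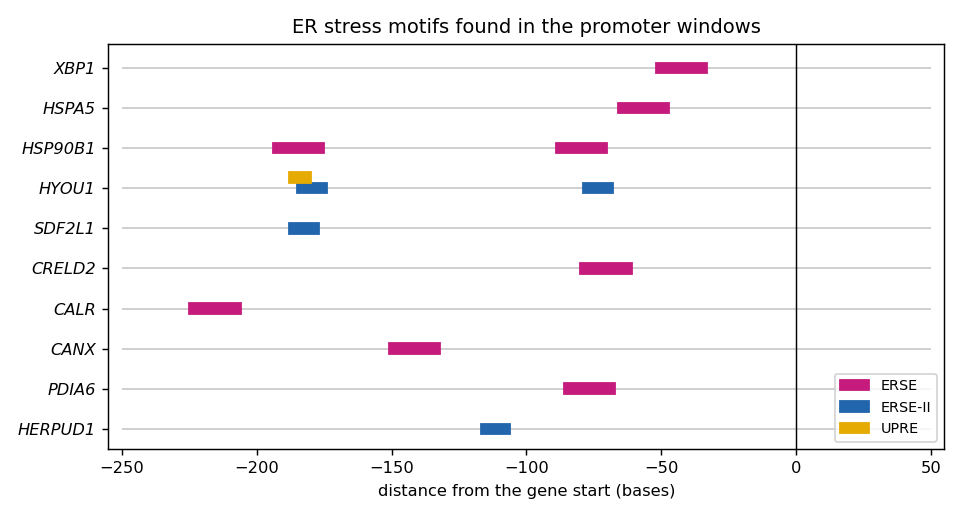
Positions of exact motif matches in the promoter windows of the 10 genes that had 1, in bases from the gene start (vertical line at 0), with ERSE, ERSE-II and UPRE as coloured boxes. The matches lie between base -225 (CALR) and base -34 (XBP1), all upstream of the start.

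Library totals ran from 13204588 to 26304900 counts, and levels are given as CPM, each count divided by its library's total and TMM scaling factor. The venetoclax libraries stood further apart than the others: over 9858 genes of at least 5 CPM their median absolute log2 difference was 0.262, against 0.088 to 0.101 in the other groups, and over 31 of the ER genes it was 0.203, against 0.0539 to 0.107. Because 1 estimate of spread serves all groups in the test, comparisons with venetoclax are also given from their 4 libraries alone. Of the 6 KG1a markers, CD34 stood at 952 to 1519 CPM in the 8 libraries, PTPRC, SPN, FGFR1 and CD7 were detected in every library, and MEIS1 was at or near 0 (at most 0.457 CPM). Some of them moved with treatment: PTPRC had 458 and 429 CPM with the combination, against 830 and 808 CPM with vehicle, and fell (log2 fold change -0.89, adjusted p = 0.00303). SPN rose with TAK-981 (0.47) and with the combination (0.41), and CD34 with venetoclax (0.49). The erythroid genes HBA1 and HBB, the stromal genes COL1A2 and DCN, the granulocyte gene ELANE and the plasma cell gene SDC1 had 0 counts in all 8 libraries. Other markers of these types were not all at 0. The 5 monocyte and granulocyte markers summed to 2.45 to 2.99 CPM with TAK-981, 0.381 to 0.390 CPM with venetoclax and 2.19 to 2.40 CPM with the combination, against 0.469 to 0.738 CPM with vehicle, and of 2 tested, 2 rose with TAK-981 and 1 with the combination. The 3 T cell markers summed to 45.3 to 46.7 CPM with TAK-981, 30.7 to 42.6 CPM with venetoclax and 23.5 to 27.4 CPM with the combination, against 37.3 to 50.1 CPM with vehicle, and of 2 tested, 1 fell with TAK-981 and 1 with the combination. The erythroid and stromal lists summed to at most 0.146 and 0.218 CPM. The part of these markers in the results of the ER genes was not tested. Noncoding RNAs fixed as signs of RNA quality or library type (RN7SK, RN7SL1, RN7SL2, RMRP, RPPH1, MALAT1 and NEAT1) summed to 12170 and 14190 CPM in the combination libraries, 4150 to 6894 CPM with TAK-981, 3993 and 5730 CPM with venetoclax and 3403 and 3782 CPM with vehicle. Most of each combination sum was MALAT1 (11460 and 13520 CPM). RN7SK had 56.67 and 91.35 CPM with the combination, against 2.909 and 3.286 CPM with vehicle. RN7SL1 had 41.18 and 94.04 CPM, against 2.431 and 2.774 CPM with vehicle. Of the 7 RNAs, 6 passed the test as higher in the combination against vehicle. Their part in the results of the combination was not tested.

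The ER genes took a larger share of all counts in every drug-treated library than in the vehicle libraries. The share was 0.827% and 0.829% with TAK-981, 0.928% and 1.003% with venetoclax, and 0.981% and 1.03% with the combination, against 0.730% and 0.749% with vehicle. Without HSPA5, CALR and HSP90B1 the ranges were 0.596% to 0.603%, 0.578% to 0.630% and 0.616% to 0.628%, against 0.547% and 0.552% with vehicle. Per kilobase of the gene length in the table, CALR had the highest level with vehicle (361 CPM per kb), followed by XBP1 (247), CANX (179), HSP90B1 (142), PDIA3 (92.5), PDIA6 (90.7) and HSPA5 (68.3). The vehicle libraries of PDIA3 (378 and 404 CPM) and PDIA6 (356 and 384 CPM) stood further apart than these neighbours' levels per kb. At the low end of the tested genes were SDF2L1 (1.86 CPM per kb), DERL3 (1.27), ERN1 (1.03) and CRELD2 (0.773).

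With TAK-981 against vehicle, 4 of the 33 tested genes rose and 1 fell (15.2%), against 5.98% of all 12843 tested genes that rose and 6.18% that fell (12.2% in either direction). With venetoclax against vehicle 11 rose and 1 fell (36.4%), against 11.4% and 9.44% of all genes (20.8%). With the combination against vehicle 12 rose and 1 fell (39.4%), against 12.8% and 15.1% of all genes (27.9%). The median log2 fold change of the ER genes was 0.12, 0.18 and 0.18 in these 3 comparisons and that of all genes 0.0015, 0 and 0.0124. The 3 comparisons share the vehicle libraries. The ER genes were chosen with earlier results of these data known, so these shares describe the list and are not a test of it. Libraries of the 2 groups did not overlap for 23, 24 and 26 of the 33 genes, against 65.3%, 58.2% and 72.6% of all genes, and for 19 with the combination against venetoclax (68.8% of all) and 25 against TAK-981 (65.4% of all). All adjusted p-values are from edgeR's quasi-likelihood test with Benjamini-Hochberg adjustment over all tested genes, with a threshold of 0.05, and "rose" and "fell" are used of genes that passed it. With the 4 libraries of a comparison alone the counts were 11 higher and 1 lower for TAK-981, 4 higher and 1 lower for venetoclax, and 15 higher and 2 lower for the combination. Over all genes 4096, 200 and 5740 were called in these fits, against 1562, 2676 and 3582 in the fit over 8 libraries, so the members' counts moved in the same direction as those of all genes. With venetoclax the 5 were HSPA5, CALR, DNAJB11, MANF and EDEM1. Leaving out vehicle replicate 1 left 1, 3 and 7 genes higher, without vehicle replicate 2 it was 1, 6 and 8, and without either TAK-981 library 1 gene was higher in that comparison. Without combination replicate 1 and 2, 10 and 6 genes were higher with the combination, and without venetoclax replicate 1 and 2, 16 and 12 were higher with venetoclax. With TAK-981 against vehicle, 9 and 10 genes were higher without venetoclax replicate 1 and 2, and 0 were lower without any 1 of the TAK-981 and vehicle libraries. With venetoclax, 4 genes were lower without venetoclax replicate 2. With the combination, 3 genes were lower without either venetoclax library and 0 without any 1 of the other 6.

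**Figure D2:**
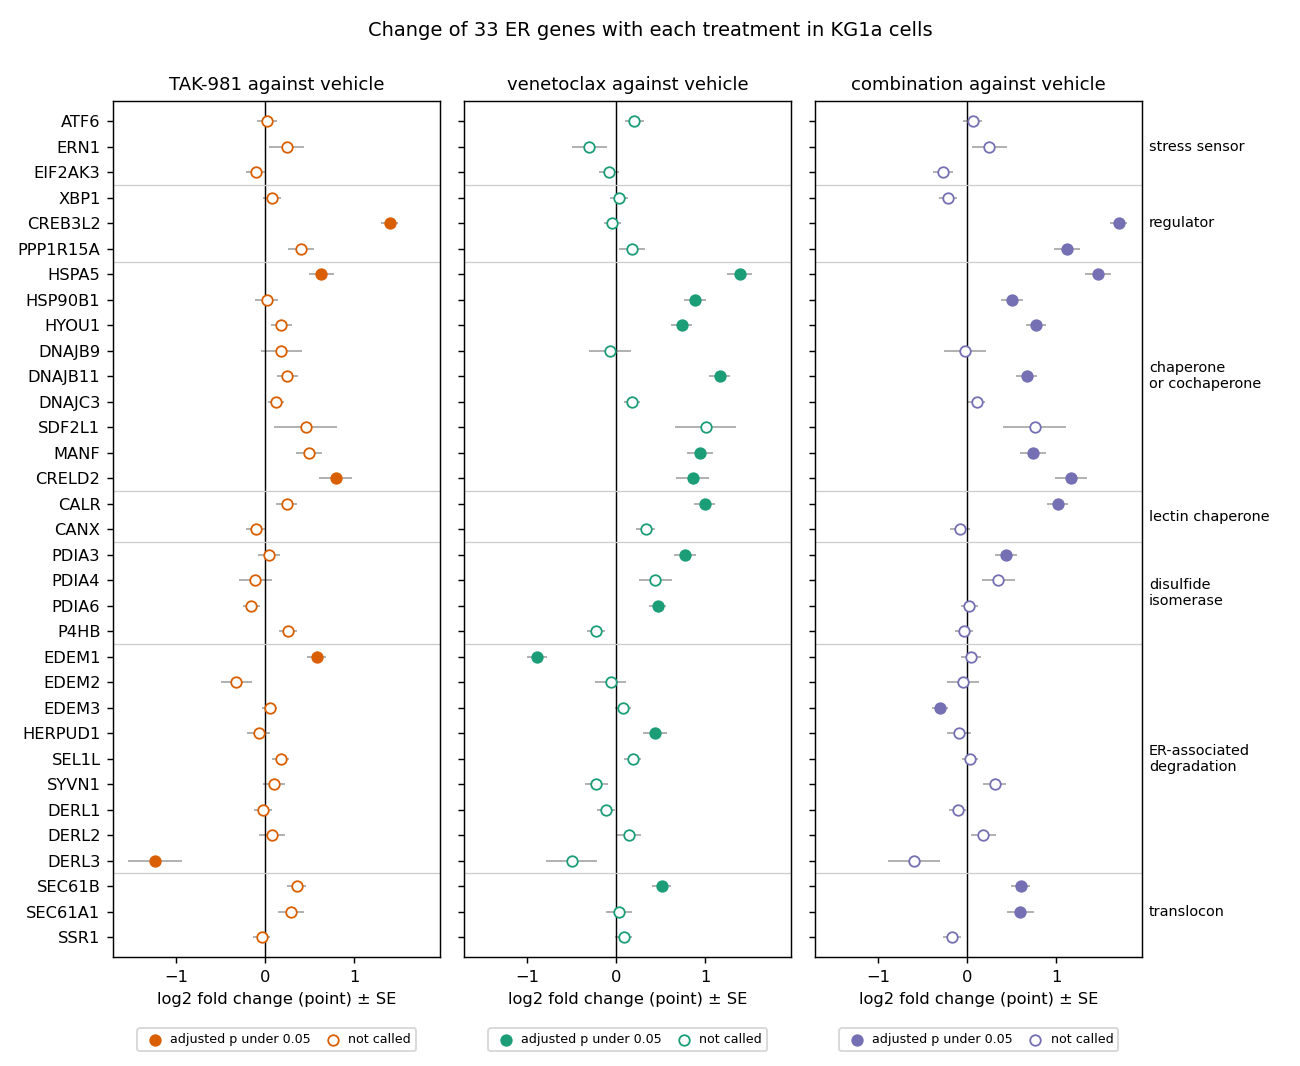
Log2 fold change (point) with its standard error (bar) for the 33 tested ER genes, by role, with TAK-981, venetoclax and the combination against vehicle (2 libraries per group). Filled points passed the test: the chaperones lie to the right with venetoclax and the combination, CREB3L2 with TAK-981 and the combination, and EDEM1 to the right with TAK-981 and to the left with venetoclax.

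The mRNAs of the 3 stress sensors did not pass the test in any comparison. ATF6 stood at 143 and 134 CPM with TAK-981, 173 and 143 CPM with venetoclax and 142 and 143 CPM with the combination, against 136 and 138 CPM with vehicle. EIF2AK3 stood at 45.2 and 45.8 CPM with TAK-981, 49.95 and 42.3 CPM with venetoclax and 41.6 and 39.1 CPM with the combination, against 47.6 and 49.9 CPM with vehicle. The combination libraries of EIF2AK3 were the lowest of the 8, at a log2 fold change of -0.27 (SE 0.114, adjusted p = 0.107). ERN1 had low levels, 10.6 and 11.3 CPM with TAK-981, 5.94 and 8.80 CPM with venetoclax and 11.4 and 10.5 CPM with the combination, against 8.81 and 9.69 CPM with vehicle. Its combination and venetoclax libraries did not overlap (log2 fold change 0.55, SE 0.201, adjusted p = 0.0556), and this difference passed with DESeq2, with DESeq2's size factors, with the replicate block and with both other filters. Without venetoclax replicate 2, ATF6 passed with venetoclax (0.34) and in the combination against venetoclax (-0.29). ERN1 then passed in the same comparisons (-0.64 and 0.88), and EIF2AK3 in the combination against venetoclax (-0.31). Without venetoclax replicate 1, the values of ATF6 were 0.06 and -0.01, those of ERN1 -0.07 and 0.31, and that of EIF2AK3 -0.07, and none of these passed in edgeR. Apart from that of ERN1 in the combination against venetoclax, these differences therefore rest on which venetoclax library is used. The ERN1 difference kept its direction in every fit, but its size ran from 0.31 to 0.88. EIF2AK3 passed as lower in the combination against vehicle without either venetoclax library (-0.28 without replicate 1 and -0.28 without replicate 2) and with the 4 libraries alone. WFS1, an ER membrane protein gene of calcium balance, had 0 counts in all 8 libraries, which allows at most 0.117 to 0.228 CPM per library at a limit of 3 counts, for counting error only.

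Among the regulators CREB3L2 rose with TAK-981, with and without venetoclax. It encodes a transcription factor held in the ER membrane and released by cleavage (chromosome 7, 137874979 to 138002067, hg38). It had 138 and 151 CPM with TAK-981, 54.9 and 51.9 CPM with venetoclax and 176 and 181 CPM with the combination, against 57.4 and 52.5 CPM with vehicle. Every library with TAK-981 was above every library without it, and the venetoclax and vehicle libraries overlapped. The log2 fold change was 1.40 with TAK-981 (SE 0.0992, adjusted p = 7.42e-05), 1.70 with the combination against vehicle (adjusted p = 3.08e-05) and 1.74 with the combination against venetoclax (adjusted p = 2.21e-05). These 3 calls held without any 1 of the 8 libraries.

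PPP1R15A, whose product directs a phosphatase that undoes the action of PERK, rose with the combination. It had 30.2 and 37.5 CPM with the combination, against 14.8 and 16.3 CPM with vehicle (log2 fold change 1.12, SE 0.142, adjusted p = 0.000741). It also passed against venetoclax (0.95, adjusted p = 0.0014), at 17.6 and 17.5 CPM, and against TAK-981 (0.72, adjusted p = 0.0173), at 20.9 and 20.2 CPM. The call against TAK-981 ended without TAK-981 replicate 1 (0.74), TAK-981 replicate 2 (0.68) or combination replicate 2 (0.56). With TAK-981 alone the log2 fold change was 0.40 (adjusted p = 0.102), and it passed without venetoclax replicate 1 (0.40) or 2 (0.41). It also passed without both venetoclax libraries (0.40, adjusted p = 0.0216) and with the 4 libraries alone (0.41, adjusted p = 0.0101). XBP1 had 640.1 and 641 CPM with the combination, 783 and 791 CPM with TAK-981 and 760.2 and 765 CPM with venetoclax, against 721 and 773 CPM with vehicle. The combination libraries were the lowest of the 8. Its log2 fold change was -0.22 against vehicle (adjusted p = 0.142), -0.25 against venetoclax (adjusted p = 0.0794) and -0.30 against TAK-981 (adjusted p = 0.112). All 3 passed without venetoclax replicate 1 (-0.23, -0.26 and -0.30) or 2 (-0.23, -0.26 and -0.31). Counts per gene do not separate spliced from unspliced XBP1.

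Of the 9 chaperones and cochaperones, 6 rose with venetoclax, 6 with the combination and 2 with TAK-981. With the combination the share of regulators and of import channel genes that rose, 2 of 3 each, was the same (66.7%). Of all tested genes, 11.4% rose with venetoclax, 12.8% with the combination and 5.98% with TAK-981. From their 4 libraries alone, the rises with venetoclax were those of HSPA5, DNAJB11 and MANF. HSPA5, the BiP gene (chromosome 9, 125234853 to 125241330, hg38), had 419 and 405 CPM with TAK-981, 618 and 773 CPM with venetoclax and 667 and 804 CPM with the combination, against 254 and 279 CPM with vehicle. The groups did not overlap, apart from venetoclax with the combination. The log2 fold change was 0.63 with TAK-981 (SE 0.141, adjusted p = 0.0215), 1.39 with venetoclax (SE 0.143, adjusted p = 0.00145) and 1.47 with the combination (SE 0.144, adjusted p = 0.000229). The TAK-981 call ended without either TAK-981 library (0.60 without replicate 1 and 0.65 without replicate 2) and without either vehicle library (0.56 without replicate 1 and 0.70 without replicate 2). The TAK-981 call held with the 4 libraries of that comparison alone. The calls with venetoclax and with the combination held without any 1 library.

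HSP90B1 encodes GRP94, the ER member of the HSP90 family. It had 1301 and 1158 CPM with venetoclax and 884 and 1001 CPM with the combination, against 625 and 705 CPM with vehicle. The TAK-981 libraries, at 694 and 650.1 CPM, lay within the vehicle range, and the venetoclax libraries were the highest of the 8. It rose with venetoclax (log2 fold change 0.89, adjusted p = 0.00348) and with the combination (0.50, adjusted p = 0.0166). The venetoclax call ended without vehicle replicate 1 (0.80) and with the 4 libraries alone. The call with the combination ended without combination replicate 2 (0.41), vehicle replicate 1 (0.41) or vehicle replicate 2 (0.59).

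DNAJB11, a J-domain partner of BiP, had 154 and 134 CPM with venetoclax, 95.3 and 108 CPM with the combination and 81.6 and 70.9 CPM with TAK-981, against 67.3 and 61.0 CPM with vehicle. Its venetoclax libraries were above all others (log2 fold change 1.16, adjusted p = 0.00145), and it also rose with the combination (0.67, adjusted p = 0.00419), a call that ended without combination replicate 2 (0.57) or vehicle replicate 2 (0.59). HYOU1, a nucleotide exchange factor of BiP, had 257 and 317 CPM with venetoclax and 283 and 306 CPM with the combination, against 175 and 169.5 CPM with vehicle. It rose by 0.74 and 0.77 on the log2 scale with venetoclax and the combination (adjusted p = 0.00493 and 0.00167). The first call ended without vehicle replicate 1 (0.76) or 2 (0.71) and with the 4 libraries alone.

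MANF, a secreted ER stress protein that binds BiP, had 91.5 and 81.6 CPM with venetoclax and 65.2 and 85.7 CPM with the combination, against 41.8 and 48.3 CPM with vehicle (log2 fold change 0.94 and 0.74, adjusted p = 0.00453 and 0.00558). Its venetoclax call ended without vehicle replicate 1 (0.84), and its combination call without combination replicate 2 (0.53) or vehicle replicate 1 (0.64). CRELD2, another secreted ER stress protein, was higher in each library of the 3 drug groups than in both vehicle libraries. It had 6.96 and 6.84 CPM with TAK-981, 6.40 and 7.95 CPM with venetoclax and 8.59 and 9.32 CPM with the combination, against 4.17 and 3.80 CPM with vehicle. The log2 fold changes were 0.79, 0.86 and 1.16, with adjusted p = 0.0244, 0.0136 and 0.00208. Its TAK-981 call ended without either library of TAK-981 (0.78 and 0.81) or vehicle (0.86 and 0.73), and held with the 4 libraries alone. Its venetoclax call ended without vehicle replicate 1 (0.93) or 2 (0.80) and with the 4 libraries alone.

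SDF2L1, DNAJC3 and DNAJB9 did not pass. SDF2L1, found in a complex with DNAJB11, had 2.67 and 5.26 CPM with venetoclax and 3.98 and 2.84 CPM with the combination, against 1.74 and 2.35 CPM with vehicle. The difference between its venetoclax libraries was larger than that between the group means (log2 fold change 1.01, SE 0.344, adjusted p = 0.0674). With venetoclax it was 1.36, and passed, without venetoclax replicate 1, and 0.38, and did not pass, without venetoclax replicate 2. With the combination it was 0.76 and passed without either of them. DNAJC3 and DNAJB9, 2 further J-domain proteins, ranged from 156 to 186 and from 5.63 to 9.19 CPM over the 8 libraries.

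**Figure D3:**
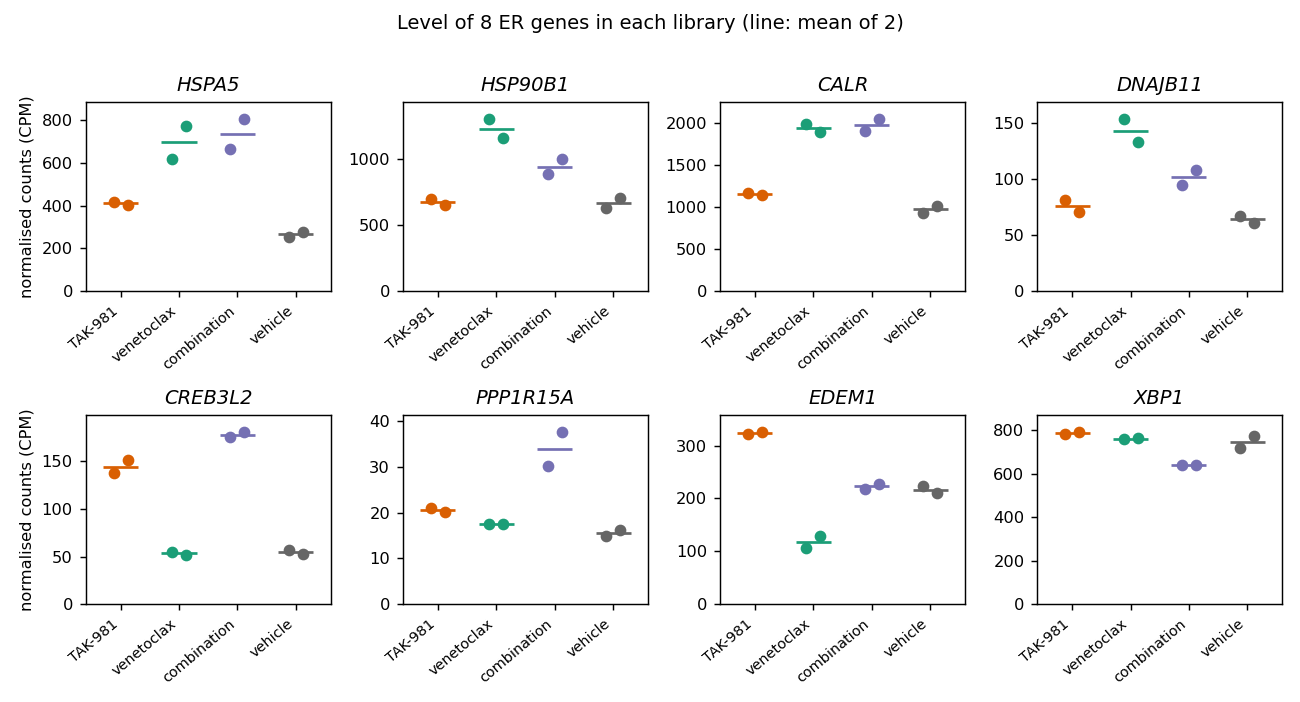
Normalised counts (CPM, axis from 0) of 8 ER genes in each library (points) with the group mean of 2 libraries (line). HSPA5, HSP90B1, CALR and DNAJB11 are higher with venetoclax and the combination than with vehicle, CREB3L2 is higher in the 4 libraries with TAK-981, PPP1R15A is highest with the combination, and EDEM1 has its lowest values with venetoclax.

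Of the 2 lectin chaperones, which bind the sugar chains of new glycoproteins, CALR rose with venetoclax and with the combination, and CANX did not pass against vehicle in edgeR. No difference between the genes was tested. CALR, encoding soluble calreticulin, had 1991 and 1892 CPM with venetoclax and 1900 and 2045 CPM with the combination, against 935 and 1018 CPM with vehicle. It rose by 0.99 (SE 0.119, adjusted p = 0.00219) with venetoclax and by 1.01 (SE 0.119, adjusted p = 0.000512) with the combination, and both calls held without any 1 library. With TAK-981 it had 1171 and 1138 CPM, above both vehicle libraries, at a log2 fold change of 0.24 (adjusted p = 0.231). CANX, encoding membrane-bound calnexin, had 1427 and 1372 CPM with venetoclax, against 1079 and 1148 CPM with vehicle (log2 fold change 0.33, adjusted p = 0.0614). It passed in this comparison with DESeq2 and with limma-voom. With the combination it had 1053 and 1054 CPM, below both vehicle libraries, and it fell against venetoclax (-0.41, adjusted p = 0.0168). That call ended without TAK-981 replicate 2 (-0.41), combination replicate 1 (-0.42) or combination replicate 2 (-0.41), and with the 4 libraries alone.

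Of the 4 disulfide isomerases, 2 rose with venetoclax, 1 with the combination and 0 with TAK-981 in edgeR. The shares of all tested genes that rose were 11.4%, 12.8% and 5.98%. For TAK-981, 0 of the 4 passed in DESeq2 and limma-voom too, and 1 of the 4, P4HB, had an unadjusted p under 0.05 in edgeR. PDIA3, the isomerase that works with the lectin chaperones, had 728 and 610 CPM with venetoclax and 497 and 557 CPM with the combination, against 378 and 404 CPM with vehicle (log2 fold change 0.77 and 0.43, adjusted p = 0.00493 and 0.0277). Its venetoclax call ended without vehicle replicate 1 (0.73) and with the 4 libraries alone, and its combination call without any 1 of the 6 TAK-981, combination and vehicle libraries (0.35 to 0.51). PDIA6 had 522 and 499.5 CPM with venetoclax, against 356 and 384 CPM with vehicle, and rose by 0.46 (adjusted p = 0.0123). This call ended without vehicle replicate 1 (0.41) or 2 (0.52) and with the 4 libraries alone. In the combination, at 372 and 380.0 CPM, it lay within the vehicle range. PDIA4 had 54.4 and 87.1 CPM in the venetoclax libraries. This was the widest log2 difference between replicates of 1 group (0.678) among the 31 ER genes of at least 5 CPM. PDIA4 had 64.2 and 69.4 CPM with the combination, against 50.8 and 54.2 CPM with vehicle. With venetoclax its log2 fold change was 0.44 (adjusted p = 0.124). It was 0.73, and passed, without venetoclax replicate 1, and 0.05, and did not pass, without venetoclax replicate 2. Without either venetoclax library it passed with the combination against vehicle (0.34) and against TAK-981 (0.46 and 0.44). P4HB, the founding disulfide isomerase, was lower in both venetoclax libraries (299.5 and 301 CPM) than in both vehicle libraries (346 and 359 CPM), and did not pass (-0.23, adjusted p = 0.130).

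ER-associated degradation, which extracts misfolded proteins for the proteasome, included the gene with opposite changes under the 2 drugs. EDEM1 encodes a mannosidase-like protein that marks misfolded glycoproteins (chromosome 3, 5187646 to 5219957, hg38). It had 322 and 325 CPM with TAK-981, 105 and 128 CPM with venetoclax and 218 and 228 CPM with the combination, against 224 and 209.9 CPM with vehicle. The TAK-981 libraries were above all others, the venetoclax libraries were below all others, and the combination overlapped with vehicle. EDEM1 rose by 0.58 with TAK-981 (SE 0.111, adjusted p = 0.0111) and fell by 0.89 with venetoclax (SE 0.112, adjusted p = 0.00249), and the log2 fold change was 0.04 with the combination (adjusted p = 0.817). The venetoclax call held without any 1 library and with the 4 libraries alone. The TAK-981 call ended without TAK-981 replicate 1 (0.58) or 2 (0.57), or vehicle replicate 1 (0.62) or 2 (0.53), and held with the 4 libraries alone.

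EDEM3, its paralog, had 124 and 118 CPM with the combination, against 153 and 146 CPM with vehicle, and fell by 0.30 (adjusted p = 0.0307), a call that ended without any 1 of the 6 TAK-981, combination and vehicle libraries (-0.35 to -0.27). HERPUD1, a scaffold of the SYVN1 ligase complex, had 49.7 and 59.3 CPM with venetoclax, against 37.8 and 43.1 CPM with vehicle (log2 fold change 0.43, adjusted p = 0.047). It passed without venetoclax replicate 1, and the call ended without any other 1 library (0.30 without venetoclax replicate 2, 0.34 to 0.53 without the others), with DESeq2's size factors, with a filter at 1 CPM and with the 4 libraries alone. DERL3, a derlin of the degradation channel that plasma cells express, had 1.80 and 2.30 CPM with TAK-981, 2.67 and 3.97 CPM with venetoclax and 3.84 and 2.40 CPM with the combination, against 5.38 and 4.27 CPM with vehicle. Every drug-treated library was below both vehicle libraries, and the fall with TAK-981 passed (-1.24, SE 0.302, adjusted p = 0.0296). This call ended without TAK-981 replicate 1 (-1.07) or 2 (-1.42), or vehicle replicate 1 (-1.07) or 2 (-1.40). It held with the 4 libraries alone. Among plasma and B cell markers, SDC1 was at 0 in all 8 libraries, MS4A1 was at or near 0 (at most 0.043 CPM), and CD79A and PRDM1 stayed under 1.5 CPM. CD79A had 0.644 and 1.23 CPM with TAK-981 and 0.731 and 1.46 CPM with the combination, against 0.347 and 0.171 CPM with vehicle. PRDM1 had 0.0457 and 0.146 CPM with the combination, against 0.347 and 0.683 CPM with vehicle. Of the 3 markers tested, 1 rose and 2 fell with the combination. JCHAIN, the joining chain of secreted antibodies, had 156 and 140.2 CPM with TAK-981, 201 and 139 CPM with venetoclax and 81.0 and 79.9 CPM with the combination, against 265 and 317 CPM with vehicle. It fell in all 3 comparisons with vehicle (log2 fold changes of -0.97, -0.78 and -1.85). Its part in the DERL3 result was not tested. SEL1L and SYVN1 of the ligase complex, and EDEM2, DERL1 and DERL2, did not pass against vehicle under any of the 3 treatments (log2 fold changes from -0.32 to 0.31).

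At the import channel, SEC61B, a small subunit, rose with venetoclax and with the combination. It had 60.5 and 58.2 CPM with venetoclax and 59.6 and 66.5 CPM with the combination, against 39.3 and 43.9 CPM with vehicle (log2 fold change 0.51 and 0.60, adjusted p = 0.0133 and 0.00404). Both TAK-981 libraries (54.7 and 51.4 CPM) were also above vehicle, at 0.35 (adjusted p = 0.069). The venetoclax call ended without vehicle replicate 1 (0.43) or 2 (0.60) and with the 4 libraries alone, and the combination call without combination replicate 2 (0.52) or vehicle replicate 1 (0.52). SEC61A1, the pore subunit, had 385 and 419 CPM with the combination, against 274 and 257 CPM with vehicle (0.60, adjusted p = 0.0155), while its venetoclax libraries stood at 227 and 315 CPM on either side of vehicle. The combination call ended without either library of the combination (0.65 and 0.53) or vehicle (0.64 and 0.55). SSR1, a subunit of the translocon-associated complex, had log2 fold changes of -0.04, 0.08 and -0.17 with TAK-981, venetoclax and the combination, and did not pass.

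The combination was set against each drug alone to give the effect of the second drug. Against TAK-981, 5 ER genes rose (CALR 0.77, HSPA5 0.84, HYOU1 0.59, PPP1R15A and HSP90B1 0.49) and 2 fell (EDEM1 -0.54 and EDEM3 -0.35), with adjusted p from 0.00654 to 0.0445. This was 21.2% of the 33, against 2.76% of all genes that rose and 6.03% that fell (8.80%). The counts were 0 higher without TAK-981 replicate 1, TAK-981 replicate 2 or combination replicate 2, 3 higher without combination replicate 1 and 10 higher without either venetoclax library. Likewise, 0 were lower without any 1 of the TAK-981, combination and vehicle libraries, and 4 were lower without either venetoclax library. The calls of CALR (0.72 to 0.79) and HSPA5 (0.70 to 0.86) ended without TAK-981 replicate 1, TAK-981 replicate 2 or combination replicate 2, that of HYOU1 without any 1 library of TAK-981 or the combination (0.54 to 0.65), and those of EDEM1, EDEM3 and HSP90B1 without any 1 of the 6 TAK-981, combination and vehicle libraries. Against venetoclax, 5 rose and 6 fell (33.3%, against 17.6% and 22.0% of all genes, 39.6% in either direction). The rises were CREB3L2, PPP1R15A, EDEM1 0.93, SEC61A1 0.57 and SYVN1 0.53, and the falls PDIA6 -0.44, DNAJB11 -0.50, HERPUD1 -0.52, CANX, EDEM3 -0.38 and HSP90B1 -0.38. With the 4 libraries alone, 4 rose and 0 of the 6 falls were called by edgeR. In the fit over all libraries DESeq2 called 7 lower and limma-voom 7. Without combination replicate 1 or 2, 3 were higher and 1 was lower, and without venetoclax replicate 2, 7 were higher and 11 lower. The calls of CREB3L2, PPP1R15A and EDEM1 held without any 1 library. Those of PDIA6, HERPUD1, SYVN1 and SEC61A1 ended without either combination library, that of DNAJB11 without combination replicate 1 (-0.41), that of EDEM3 without combination replicate 2 (-0.34), and that of HSP90B1 without any 1 of the 6 TAK-981, combination and vehicle libraries (-0.48 to -0.31). PDIA4, not called (-0.09), was at -0.39 without venetoclax replicate 1 and at 0.29 without venetoclax replicate 2, opposite directions that depend on which of these libraries is left out.

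The interaction asks whether TAK-981 shifts a gene by a different amount in cells that also received venetoclax. A positive value means a more upward, or less downward, change in those cells. The interaction was called for 0 of the 33 ER genes by edgeR, and 4 of all 12843 genes passed (0.0311%). At an unadjusted p under 0.05 it was 11 of the 33 (33.3%, against 18.9% of all genes). DESeq2 called 1 of the 33, DNAJB11, and limma-voom 0. The estimate was negative for all 9 chaperones and cochaperones, from -0.75 for DNAJB11 (SE 0.171, adjusted p = 0.127) to -0.14, with -0.55 for HSPA5 (adjusted p = 0.202) and -0.69 for MANF (adjusted p = 0.167). For the 7 of them with a venetoclax log2 fold change over 0.7, from HYOU1 to HSPA5, the estimated rise was smaller with TAK-981 than without. In no case was this past the threshold in edgeR's main fit. Without the filter on low counts HSPA5 passed (-0.56, adjusted p = 0.0357), in a fit that called 1098 of all genes. The HSPA5 estimate was -0.71 without venetoclax replicate 1 and -0.39 without venetoclax replicate 2. These 7 were picked by the venetoclax value that the interaction subtracts. Picking high values by itself favours a negative estimate, so no conclusion is drawn from these 7. DNAJB9 was at -0.21 with TAK-981 and -0.07 without, and DNAJC3 at -0.02 and 0.18. The sign is not independent between genes, since all share the same 8 libraries. Without venetoclax replicate 1, 0 were higher and 4 lower, and without venetoclax replicate 2, 6 were higher and 9 lower. Over all genes, 713 and 4440 were called in these fits, so the members' counts rose along with those of all genes. A single venetoclax library there stands for its group and is taken to vary like the others.

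**Figure D4:**
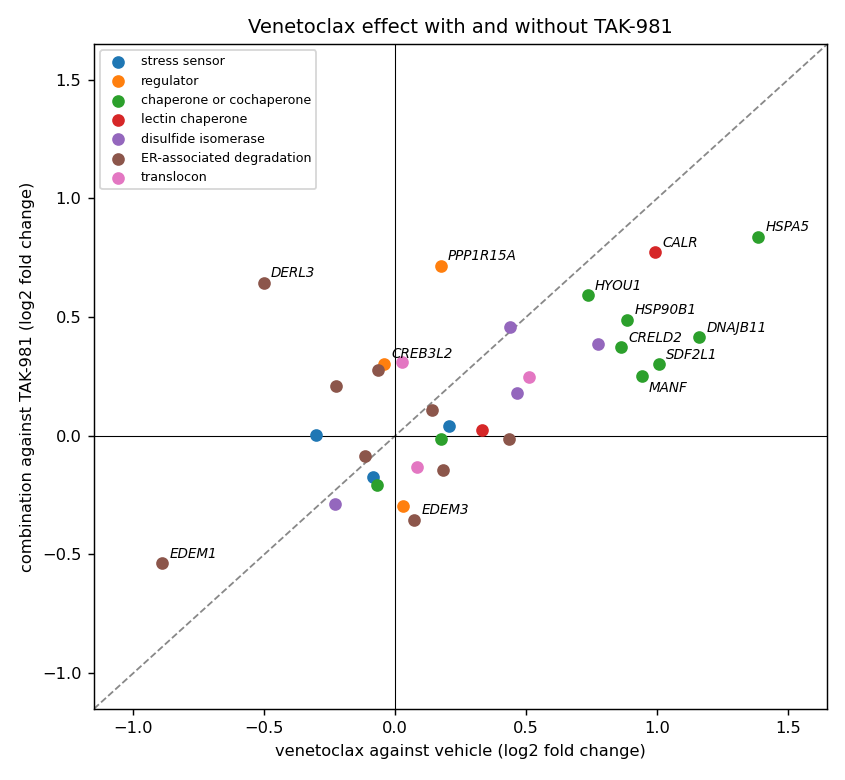
Log2 fold change of venetoclax against vehicle (horizontal) and of the combination against TAK-981 (vertical) for 33 ER genes coloured by role. The comparisons share no library, and the dashed line marks equal effects. HSPA5 (1.39 and 0.84) and DNAJB11 (1.16 and 0.42) lie below the line, PPP1R15A (0.17 and 0.72) above it, and EDEM1 (-0.89 and -0.54) is negative on both axes.

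Set beside the promoter letters shown above, the 7 tested genes with an ERSE had a median log2 fold change of 0.86 with venetoclax, and 5 of them rose, HSPA5, HSP90B1, CRELD2, CALR and PDIA6. The 23 tested genes with a window but no ERSE had a median of 0.14, with 5 higher and 1 lower. These 23 include HYOU1, HERPUD1 and SDF2L1, which have an ERSE-II, and HYOU1 and HERPUD1 are among the 5 that rose. With the combination the medians were 0.50 and 0.18, with 4 of 7 and 7 of 23 higher, and with TAK-981 0.08 and 0.18, with 2 of 7 and 2 of 23 higher. Of all tested genes, 11.4% rose with venetoclax, 12.8% with the combination and 5.98% with TAK-981. The values by motif are a description of the genes chosen here. XBP1 and CANX, which have an ERSE, did not pass with any treatment against vehicle in edgeR's main fit. CANX passed with venetoclax in DESeq2 and limma-voom. XBP1 passed as lower with the combination without both venetoclax libraries (-0.22). DNAJB11 and MANF, without an exact match in the window, rose with venetoclax.

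Beyond these genes, a further list of 59 ER folding, import and degradation genes was examined, of which 58 were tested. With TAK-981 1 of them fell, UGGT2, a glycoprotein folding sensor (-0.71, adjusted p = 0.0239), and 57 were not called. With venetoclax 5 rose and 1 fell. The rises included the prolyl isomerase genes PPIB (1.08, adjusted p = 0.00391) and FKBP2 (0.88, adjusted p = 0.00841), the peroxiredoxin PRDX4 (0.52, adjusted p = 0.00828) and the oligosaccharyltransferase subunit STT3A (0.46, adjusted p = 0.0176), and the ubiquitin-conjugating enzyme UBE2J1 fell (-0.36, adjusted p = 0.0344). With the combination 6 rose and 8 fell, at a median of 0.04. The rises with the smallest p were PPIB (0.70), FKBP2 (0.65), the KDEL receptor KDELR1 (0.50) and the segregase VCP (0.78). The falls were led by ERO1A, the oxidase that recharges disulfide isomerases (-1.34, adjusted p = 0.00279), the redox protein TMX1 (-0.90, adjusted p = 0.000339), the signal peptidase subunit SPCS3 (-0.61) and UBE2J1 (-0.71). ERO1A had 115 and 107 CPM with the combination, against 279 and 283 CPM with vehicle, while its venetoclax libraries stood apart at 319 and 176 CPM. Each of the named calls with TAK-981 and venetoclax ended without vehicle replicate 1. Those of FKBP2, KDELR1 and VCP with the combination ended without any 1 library of the combination or vehicle (0.62 to 0.67, 0.42 to 0.56 and 0.74 to 0.82), and that of PPIB without combination replicate 2 (0.61), vehicle replicate 1 (0.63) or vehicle replicate 2 (0.76). The 4 named falls with the combination held without any 1 library. The calls were 1 of 58 with TAK-981, 6 of 58 with venetoclax and 14 of 58 with the combination, against the 12.2%, 20.8% and 27.9% of all genes given above.

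The PERK branch was followed through 12 genes, 10 of them tested. With the combination DDIT3, which encodes the stress transcription factor CHOP, had 8.14 and 8.66 CPM, against 2.65 and 3.93 CPM with vehicle, and rose by 1.35 (SE 0.233, adjusted p = 0.00311). With TAK-981 it had 3.995 and 3.58 CPM and with venetoclax 2.44 and 3.16 CPM, and it passed in neither. ATF4, the transcription factor whose translation PERK favours, had 251 and 251 CPM with the combination, against 283 and 314 CPM with vehicle, and fell against venetoclax (-0.53, adjusted p = 0.00374) and against TAK-981 (-0.38, adjusted p = 0.0474). ASNS, asparagine synthetase and a target of ATF4, fell with TAK-981 (-0.67, adjusted p = 0.043) and with the combination (-0.61, adjusted p = 0.0343). The other phosphatase subunit, PPP1R15B, rose with TAK-981 (0.41, adjusted p = 0.0481), and EIF2S1, the factor PERK phosphorylates, rose with venetoclax (0.53, adjusted p = 0.00697). Against venetoclax, DDIT3 (1.56) and SESN2 (1.37, adjusted p = 0.0122) rose with the combination, and EIF2S1 fell (-0.50). The rise of DDIT3 against vehicle held without any 1 library. The falls of ASNS and of ATF4 against TAK-981, and the rise of PPP1R15B, ended without any 1 of the 6 TAK-981, combination and vehicle libraries, and the rise of EIF2S1 with venetoclax without vehicle replicate 1 (0.50) or 2 (0.57). The rise of SESN2 ended without combination replicate 2 (1.29). In counts, 1 of 10 rose and 1 fell with TAK-981, 1 rose with venetoclax, and 1 rose and 1 fell with the combination against vehicle. These 2, 1 and 2 calls of 10 stand beside 12.2%, 20.8% and 27.9% of all genes called.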

How the data were processed

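RNA from 8 KG1a libraries, 2 per labelled group, was sequenced. Per the labels' protocols, RNA was isolated with a miRNeasy kit and read from one end. The series design speaks of ribosomal RNA depletion and the labels of a SMART-Seq low-input kit, so how RNAs without poly(A) tails were captured is uncertain. The authors deposited raw read counts per gene with hg38 coordinates and a gene length. Per the submitters' processing notes, which give no roles, the tools include Trimmomatic, STAR 2.6.0, HTSeq 0.11.1 and edgeR. How strand and multi-mapping reads were handled, and which annotation release was used, is not given in the sources used here.

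The members and lists were chosen with earlier results of these data known. edgeR 4.0.16 in R 4.3.3 tested the counts with TMM, filterByExpr and a robust two-sided quasi-likelihood F test, 1 mean per group over the 8 libraries, adjusted by Benjamini-Hochberg over 12843 genes. SEs are approximate and were derived from the fold change and F. Values per library were given for a fixed set of genes and for the called genes with the smallest p, and up to 4 called genes per direction were named from the 2 further lists. CPM use library totals and TMM factors. The test was checked on simulated counts. Values of 1 marker gene are not reported here. The promoter search covered 35116 windows of 27305 genes, 39 of them for 31 of the genes described. For genes with several starts, the shares of all genes count a motif in any window. For the genes described, the first window with a match is shown, and their counts by motif come from that window. A further motif in a later window was not counted for them. Alternatives were DESeq2's size factors, 2 other filters, a replicate block, each library left out, DESeq2 1.42.0, limma-voom (limma 3.58.1), the 4 libraries of a comparison alone, and leaving out both venetoclax libraries.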

Additional observations from a re-analysis of the deposited data

How the results depend on the processing

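Counts of ER genes called are given as main value and alternatives. With TAK-981 against vehicle, 4 higher became 9 without both venetoclax libraries and 11 from the 4 libraries alone, and 1 to 10 (higher) and 0 to 1 (lower) with each library left out. With venetoclax, 11 higher became 4 from the 4 libraries alone, and 3 to 16 (higher) and 1 to 4 (lower) with each library left out. With the combination against vehicle, 1 lower became 3 without both venetoclax libraries and 2 from the 4 libraries alone, and 6 to 15 (higher) and 0 to 3 (lower) with each library left out. Against venetoclax, 6 lower became 0 from the 4 libraries alone, and 3 to 7 (higher) and 1 to 11 (lower) with each left out. Against TAK-981, 5 higher and 2 lower became 8 higher without a filter on low counts, 10 higher and 4 lower without both venetoclax libraries, and 11 higher and 4 lower from the 4 libraries alone, and 0 to 10 and 0 to 4 with each left out. For the interaction, 0 became 1 higher and 3 lower without the filter, 1 lower with DESeq2, and 0 to 6 higher and 0 to 9 lower with each left out. PDIA4 with the combination against venetoclax (-0.091) ranged from -0.393 to 0.285, the highest without venetoclax replicate 2. The cause was not tested. Fewer libraries, fewer degrees of freedom and another pooled spread are part of these fits.

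With the replicate number as a block, the calls (higher and lower) were 5 and 1 with TAK-981, 12 and 1 with venetoclax, 12 and 1 with the combination against vehicle, 6 and 7 against venetoclax, 5 and 2 against TAK-981, and 0 and 0 for the interaction. Same-numbered deviations correlated at 0.375 (combination and vehicle), 0.343 (TAK-981 and venetoclax), 0.165, 0.155, 0.02 and -0.041. Part of the groups thus deviated together, but not every pair was over 0.1 and no label gives a shared source, so the numbers were not taken to pair the libraries. Calls at low levels, such as those of CRELD2 and DERL3, rest on few counts.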
